A study of Mus musculus with 4 samples.

Results

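Translation initiation factors are the proteins that bring a messenger RNA, the initiator tRNA and the ribosomal subunits together at a start codon. Their genes were taken from an expression table of MC38 cells by name alone. Every symbol that begins with Eif and a digit from 1 to 6 was kept, the eIF2 kinase genes (Eif2ak) and the named pseudogenes were left out, and 52 of the 36445 genes in the table remained. The rule itself uses names and no measured value. MC38 is a mouse colon cancer cell line, and it was given PBS, the control, or 5-fluorouracil (5-FU) at 1 mM for 24 h. 5-FU is a uracil analogue that stops the synthesis of thymidylate and enters both RNA and DNA. Each group held 2 libraries of polyadenylated RNA, and the comparison is between these groups. The labels name no genetic change and do not say whether the replicates came from separate cultures, so the p-values rest on the spread between samples that may be technical repeats.

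Levels are FPKM, fragments per kilobase of transcript and per 1e6 fragments, which scales for transcript length and depth. How libraries compare still depends on the scaling. The FPKM of all genes summed to 343598 and 359169 in the PBS libraries and to 389882 and 387730 in the 5-FU libraries. Estimated depth was about 41.3 and 41.6 in the PBS libraries and 20.8 and 20.6 in the 5-FU libraries, in units of 1e6 reads, and depth and treatment cannot be told apart. The 12 colon epithelial markers looked up, Epcam, Cdh1 and Cdx2 among them, were all below 1 FPKM in the 4 libraries, while 7 of 8 mesenchymal markers were at 1 FPKM or more in each. The 10 leukocyte markers summed to between 0.0293 and 0.184 FPKM per library, and of 7 endothelial and erythroid markers 6 were below 1 FPKM in each. The PBS libraries lay further apart than the 5-FU libraries, with a median absolute log2 difference over all tested genes of 0.27 against 0.07.

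Initiation begins when eIF2, carrying GTP and the initiator tRNA, joins the small ribosomal subunit together with eIF1, eIF1A, eIF3 and eIF5. The eIF4F complex, made of the cap-binding protein eIF4E, the scaffold eIF4G and the RNA helicase eIF4A, recruits the messenger RNA, and the eIF4E-binding proteins (4E-BPs) block that step when the kinase mTOR is inactive. eIF2B recharges eIF2 with GTP, and stress kinases shut initiation down by phosphorylating eIF2, which turns it into an inhibitor of eIF2B.

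After 5-FU, most of the initiation factor genes that passed the test were higher, and the genes that fell included both expressed 4E-BP genes. Of this pair, the call of Eif4ebp1 depended on the scaling and the filter. At least 1 FPKM in at least 2 libraries was reached by 48 of the 52 genes, which were tested, and all 48 reached it in all 4 libraries. Of these, 22 rose, 7 fell and 19 did not pass at a limma adjusted p under 0.05. That is 45.8% higher and 14.6% lower, beside 22.1% and 31.2% of all 11644 tested genes, of which 53.3% passed in either direction. A log2 difference of at least 1 was reached by 2 of the genes that rose, Eif4a2 and Eif2b4 (8.37% of all tested genes), and by 3 that fell, Eif4ebp2, Eif4e3 and Eif4g3 (15.7%). The median log2 difference on the log2(FPKM + 1) scale, 5-FU minus PBS, was 0.49 for the 48 genes and -0.10 for all tested genes. Both 5-FU libraries lay above both PBS libraries for 32 of the 48 genes (66.7%, against 35.9% of all tested genes) and below them for 9 (18.8%, against 45.1%). Summed over all 52 genes, the level was 4982 and 4680 FPKM in the PBS libraries and 6570 and 6464 FPKM in the 5-FU libraries, or 1.45% and 1.30% against 1.69% and 1.67% of the FPKM of all genes. These values are shares of each library, and in a bulk sample fewer cells that express a gene and less of its RNA per cell cannot be told apart.

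The counts depended on the scaling and the filter. Quantile normalization gave 14 higher and 8 lower of 48 genes, beside 2946 and 2825 of all 11644 tested genes. The share of initiation factor genes higher was then much nearer that of all tested genes than above. Testing every gene without the filter gave 11 and 4 of 51, beside 2368 and 2836 of all 23640. Scaling by median ratios gave 25 and 5, beside 3094 and 3266 of all 11641. The scale without mitochondrial and ribosomal protein genes gave 17 and 8, beside 2075 and 3987 of all 11652. The median of all tested genes was -0.00, 0.02 and -0.19 log2 with median-ratio, quantile and the last of these scalings. With 5-FU replicate 1 left out, the median log2 difference was 0.41 for the 48 genes and -0.145 for all tested genes. With 5-FU replicate 2 left out it was 0.54 and -0.15. The error then rests mainly on the PBS pair, and far fewer of the 48 genes and of all tested genes passed. The share of initiation factor genes higher was then no longer above that of all tested genes. Each of the 29 genes called kept its direction in every alternative in which it was tested, which was 12 for each except Eif4e3, with 11. The PBS and 5-FU values did not overlap for any of the 29. A change of filter or pseudocount, the replicate block or leaving out a library therefore could not reverse a sign. Only the scalings and the removal of the exonic length trend could. Eif1, Eif4a2 and Eif4ebp2 kept their call under all 12, and 13 of the 29 kept it in those that leave out no library.

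**Figure D1:**
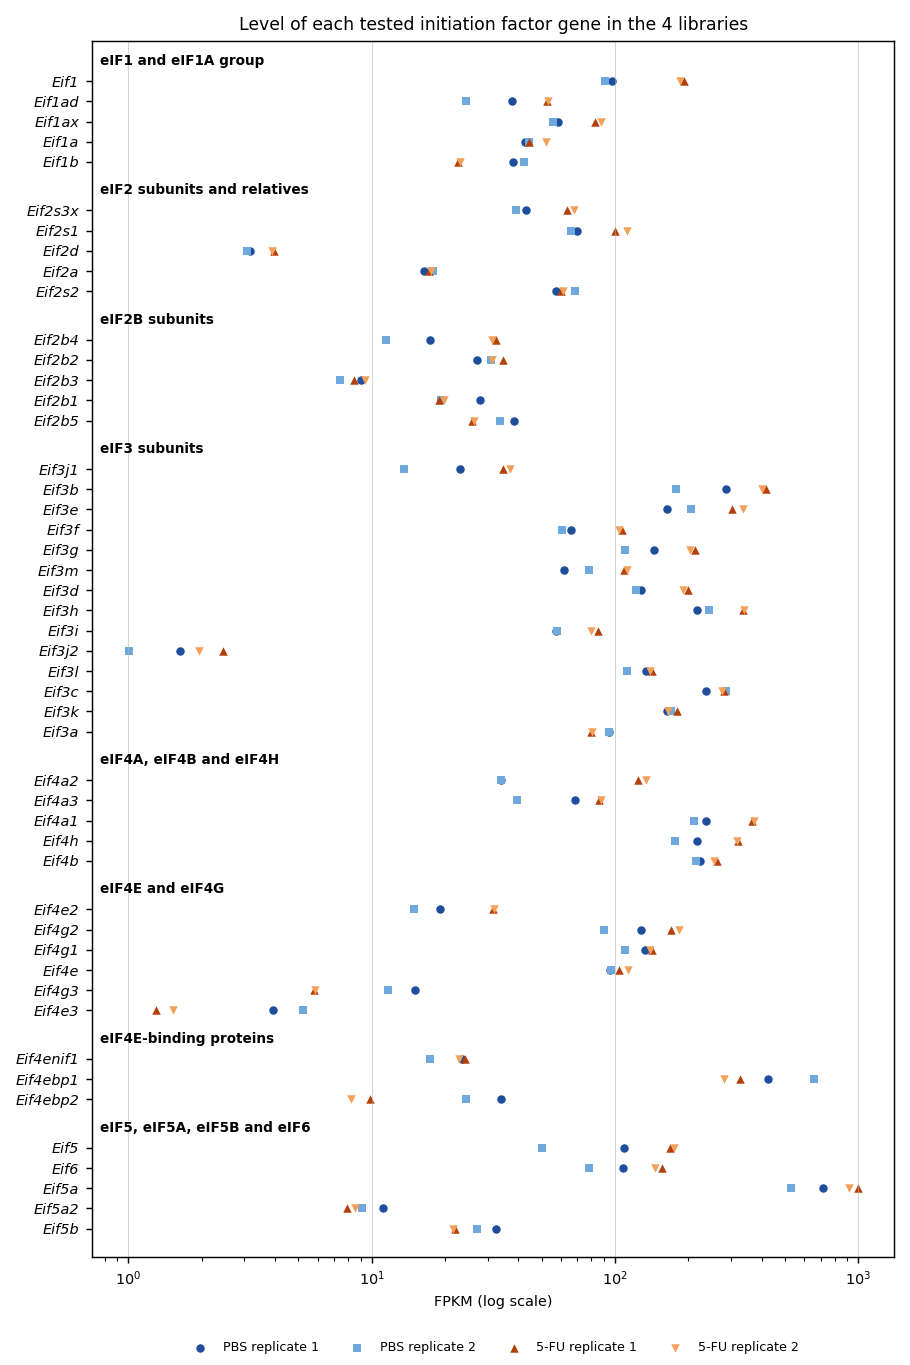
Level in FPKM (log axis) of the 48 tested initiation factor genes in each of the 4 libraries, 1 marker per library, grouped by role and ordered within a group by the difference between treatments. The 5-FU markers sit to the right of both PBS markers for 32 genes and to the left for 9, and the PBS markers are often the wider pair.

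**Figure D2:**
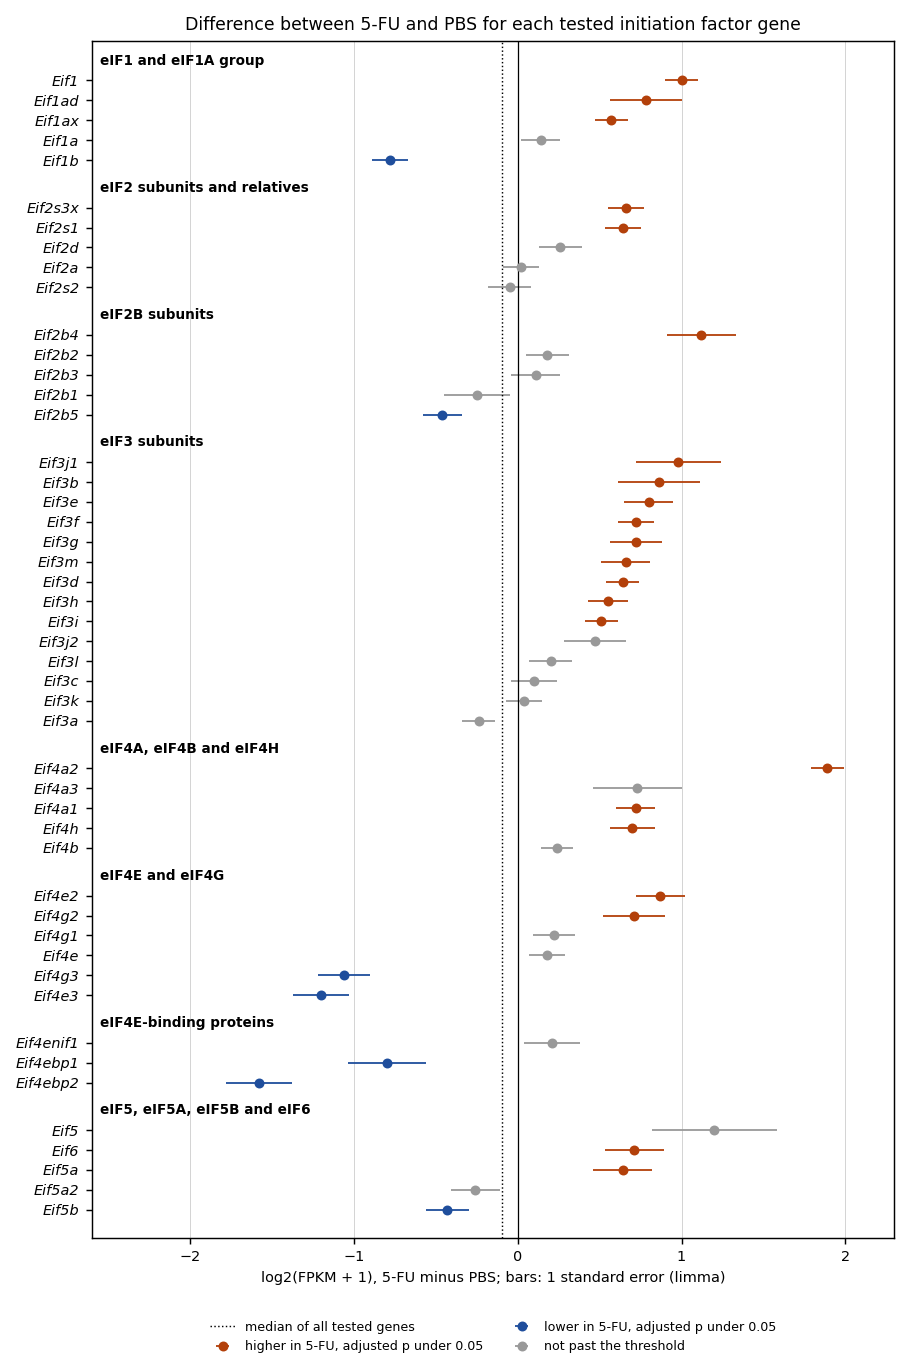
Difference between 5-FU and PBS on the log2(FPKM + 1) scale for the same 48 genes, as the limma estimate with bars of 1 standard error; the dotted line is the median of all tested genes at -0.10. Eif4a2 at 1.89 lies farthest to the right and Eif4ebp2 at -1.58 farthest to the left.

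The eIF1 and eIF1A proteins hold the small subunit in its scanning state and guard start codon choice. Of the 5 genes in this group, 3 rose, 1 fell and 1 did not pass, where 22.1% of all tested genes rose and 31.2% fell. Eif1 (chromosome 11, 100319885 to 100322096, plus strand, GRCm38) measured 96.9 and 90.8 FPKM in the PBS libraries and 192.3 and 184.7 FPKM in the 5-FU libraries. Both 5-FU libraries stood well above both PBS libraries, a 2.01-fold rise of the mean from 93.8 ± 4.28 to 188.5 ± 5.40 FPKM (SD, n = 2 per group, as for the means that follow). The log2 difference was 1.00 ± 0.10 SE, with an adjusted p of 0.00391.

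Its paralog Eif1b (chromosome 9, 120492232 to 120495330, plus strand) went the other way, from 37.9 and 42.3 FPKM to 22.7 and 23.1 FPKM. The groups did not overlap, and the log2 difference was -0.78 ± 0.11 SE (adjusted p = 0.00686). The ratio of Eif1 to Eif1b was 2.55 and 2.15 in the PBS libraries and 8.46 and 7.99 in the 5-FU libraries, so the pair moved apart in each treated library. The coding sequences of the 2 genes have the same length, 339 bases, and share 81.1% of them. The first 120 coding bases in GENCODE are shown because the 19 differing bases, in capitals, mark where reads of the paralogs differ. Other genes' transcripts hold 0.811% of the 50-base words of Eif1b and 31.6% of those of Eif1, and none of these words are shared between the paralogs.
Eif1: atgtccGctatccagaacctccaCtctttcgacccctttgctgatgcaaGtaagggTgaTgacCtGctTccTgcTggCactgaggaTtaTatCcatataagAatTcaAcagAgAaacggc
Eif1b: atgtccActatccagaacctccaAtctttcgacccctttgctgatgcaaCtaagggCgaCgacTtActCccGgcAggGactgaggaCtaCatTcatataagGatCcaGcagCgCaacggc

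Eif1ax, the X-linked eIF1A gene, measured 58.5 and 55.5 FPKM in PBS and 82.8 and 87.8 FPKM in 5-FU. It rose by 0.57 ± 0.10 log2 (adjusted p = 0.0118), with both treated libraries above both controls. Eif1a, the autosomal copy, measured 42.5 and 44.3 FPKM in PBS and 44.4 and 52.0 FPKM in 5-FU, which did not pass (adjusted p = 0.367). The ratio of Eif1ax to Eif1a was 1.38 and 1.26 in PBS and 1.87 and 1.69 in 5-FU. Eif1ad, named for its eIF1A-like domain, measured 37.7 and 24.3 FPKM in PBS and 52.6 and 53.0 FPKM in 5-FU (log2 difference 0.78 ± 0.22, adjusted p = 0.0403). That call was lost in 4 of the 8 alternatives that leave out no library, with adjusted p up to 0.116. Its PBS libraries differed more from each other than the whole treated pair, and 15.3% of its exonic bases overlap those of Banf1 on the opposite strand. Banf1 was the stronger gene, at 246.5 and 264.2 FPKM in PBS and 392.6 and 344.6 FPKM in 5-FU, and its share in the Eif1ad reads was not tested.

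eIF2 is a trimer of alpha, beta and gamma subunits. The alpha subunit gene Eif2s1, whose protein is the target of the stress kinases, measured 69.5 and 65.6 FPKM in PBS and 100.1 and 112.2 FPKM in 5-FU. The gamma subunit gene Eif2s3x, which encodes the GTP-binding subunit, measured 42.9 and 39.0 FPKM in PBS and 63.2 and 67.8 FPKM in 5-FU. Both rose without overlap of the groups, by 0.64 ± 0.11 (adjusted p = 0.0113) and 0.66 ± 0.11 log2 (adjusted p = 0.00984). Transcripts of other genes hold 8.49% of the 50-base words of Eif2s1 and 36.2% of those of Eif2s3x. The beta subunit gene Eif2s2 measured 57.2 and 68.5 FPKM in PBS and 59.9 and 61.3 FPKM in 5-FU. Its treated libraries fell between the controls, so 2 of the 3 expressed subunit genes passed. Of all tested genes, 22.1% rose and 53.3% passed in either direction. Eif2s3y, the Y-linked gamma subunit gene, was listed at 0 in all 4 libraries. Eif2a and Eif2d, which encode factors that can deliver tRNA to the ribosome without eIF2, had means of 17.2 and 3.12 FPKM in PBS and 17.4 and 3.93 FPKM in 5-FU, and neither passed (adjusted p = 0.914 and 0.147).

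Among the 5 eIF2B genes, 1 rose, 1 fell and 3 did not pass, where 22.1% of all tested genes rose and 31.2% fell. Eif2b4, which encodes the delta subunit of the regulatory core, measured 17.3 and 11.5 FPKM in PBS and 32.4 and 31.3 FPKM in 5-FU. Both treated libraries exceeded both controls, a 2.21-fold rise with a log2 difference of 1.12 ± 0.21 (adjusted p = 0.0129). Without the filter its adjusted p was 0.0518, and 7.8% of its exonic bases overlap Snx17 on the opposite strand, which measured between 18.2 and 22.7 FPKM. Eif2b5, which encodes the catalytic epsilon subunit, measured 38.6 and 33.8 FPKM in PBS and 25.7 and 26.4 FPKM in 5-FU. It fell by 0.46 on the log2 scale (adjusted p = 0.0313), again without overlap, and the call was lost without the filter (0.0546) and with the replicate block (0.0543). The order of these subunit levels therefore turned: the ratio of Eif2b4 to Eif2b5 was 0.448 and 0.340 in PBS and 1.26 and 1.19 in 5-FU. The ratio sets the eIF2B gene called higher against the gene called lower, so its change follows from those calls and adds nothing to them. The genes of the alpha, beta and gamma subunits, Eif2b1, Eif2b2 and Eif2b3, had log2 differences of -0.25, 0.18 and 0.11 and did not pass.

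eIF3 is the largest initiation factor, a complex of subunits a to m that binds the small ribosomal subunit and holds the preinitiation complex together. Of its 14 genes, 9 rose, 0 fell and 5 did not pass. That is 64.3% higher and 0% lower, beside 22.1% and 31.2% of all tested genes. Their median log2 difference was 0.60. At an unadjusted limma p under 0.05 the number that passed was also 9. Without the filter 4 were higher and 0 lower, beside 2368 and 2836 of all 23640 tested genes. Quantile normalization gave 5 higher and 1 lower, beside 2946 and 2825 of all 11644. The scale without mitochondrial and ribosomal protein genes gave 8 and 1, beside 2075 and 3987 of all 11652. With PBS replicate 1 or 2 left out, the 14 genes had a median log2 difference of 0.57 and 0.53. All tested genes then had 0.0076 and -0.076. With 5-FU replicate 1 or 2 left out, the 14 genes had 0.59 and 0.61, and all tested genes -0.145 and -0.15. With either 5-FU library left out the eIF3 calls were lost, and far fewer of all tested genes passed.

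Eif3j1, whose protein sits loosely on the complex near the mRNA entry channel, had the largest difference, from 23.1 and 13.5 FPKM to 34.8 and 37.1 FPKM. Of its 50-base words, 54.8% are held by transcripts of other genes. Of its exonic bases, 19.0% overlap Spg11 on the opposite strand, at 6.86 and 10.9 FPKM in PBS and 2.78 and 2.98 FPKM in 5-FU. The part of such reads in the Eif3j1 level was not tested. Eif3b, which encodes a core scaffold subunit, measured 284.8 and 177.7 FPKM in PBS and 417.8 and 402.7 FPKM in 5-FU. Their PBS libraries were far apart, and the log2 differences of 0.98 ± 0.26 and 0.86 ± 0.25 had adjusted p = 0.0333 and 0.0393. Both calls were lost without the filter (0.106 and 0.121), and that of Eif3b also with quantile normalization (0.156) and without mitochondrial and ribosomal protein genes in the scale (0.0607). Eif3d, whose protein can itself bind the cap, moved with less spread, from 127.3 and 121.5 FPKM to 198.5 and 190.9 FPKM (0.64 ± 0.10 log2, adjusted p = 0.00855). Eif3f, a subunit of the complex's outer body, measured 66.0 and 60.4 FPKM in PBS and 106.5 and 103.4 FPKM in 5-FU (0.72 ± 0.11 log2, adjusted p = 0.00714), the smallest adjusted p among the eIF3 genes. The other genes that rose were Eif3e, Eif3g, Eif3h, Eif3i and Eif3m, at log2 differences of 0.80, 0.72, 0.55, 0.51 and 0.66. The 9 rises ranged from 1.43-fold to 1.96-fold. Over all 14 eIF3 genes, called or not, both treated libraries lay above both controls for 11 (78.6%, against 35.9% of all tested genes). They lay below both controls for 1 (7.14%, against 45.1%).

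The remaining subunit genes did not pass. Eif3c, a core subunit gene, measured 235.5 and 285.9 FPKM in PBS and 279.8 and 276.3 FPKM in 5-FU, with the treated libraries inside the control range. Eif3k and Eif3l, which encode a peripheral pair, had log2 differences of 0.04 and 0.20. Eif3a, which encodes the largest subunit, measured 94.7 and 94.3 FPKM in PBS and 79.9 and 80.2 FPKM in 5-FU. Its treated libraries were below both controls, with a log2 difference of -0.24 ± 0.10 that did not pass (adjusted p = 0.1). It did pass, lower, with quantile normalization (0.0203), without mitochondrial and ribosomal protein genes in the scale (0.0457), and with PBS replicate 1 or 2 left out (0.00797 and 0.00753).

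The order of the eIF3 levels changed with these differences. In PBS, Eif3c had the highest mean of the 13 subunit genes, at 260.7 ± 35.7 FPKM, followed by Eif3b at 231.2 ± 75.7 and Eif3h at 230.2 ± 19.8, which did not differ beyond their spread. In 5-FU, Eif3b led at 410.2 ± 10.6 FPKM, ahead of Eif3h at 338.0 ± 1.51, Eif3e at 319.7 ± 23.1 and Eif3c at 278.0 ± 2.50. Eif3h and Eif3e did not differ beyond their spread. Eif3a moved from the ninth to the twelfth place, and Eif3j1 was the lowest in both groups. Eif3j2, a gene of nearly the same sequence on chromosome 18, measured 1.63 and 1.00 FPKM in PBS and 2.44 and 1.95 FPKM in 5-FU. Other genes' transcripts hold 91.9% of its 50-base words, nearly all of them in Eif3j1, so its level cannot be separated from that of Eif3j1.

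The eIF4A proteins are DEAD-box helicases that unwind structure ahead of the scanning ribosome, and eIF4B and eIF4H stimulate them. Eif4a2 (chromosome 16, 23107444 to 23114136, plus strand) had the largest difference of the 48 genes. It measured 33.98 and 33.99 FPKM in the PBS libraries and 124.5 and 133.5 FPKM in the 5-FU libraries, so the treated pair stood far above a control pair that was almost identical. The mean rose 3.80-fold, with a log2 difference of 1.89 ± 0.10 (adjusted p = 0.0027). The snoRNA genes annotated inside Eif4a2 were listed at 0 except Gm24616, which shares 10 exonic bases with it.

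The main helicase gene Eif4a1 measured 236.8 and 211.3 FPKM in PBS and 365.6 and 371.5 FPKM in 5-FU. Its log2 difference was 0.72 ± 0.12 (adjusted p = 0.0087), and both treated libraries exceeded both controls. The ratio of Eif4a1 to Eif4a2 was 6.97 and 6.22 in PBS and 2.94 and 2.78 in 5-FU, and the pair together summed to 270.8 and 245.3 FPKM against 490.1 and 505.0 FPKM. Other genes' transcripts hold 65.3% of the 50-base words of Eif4a1, nearly all of them in the pseudogene Eif4a-ps4, and 26.2% of those of Eif4a2, so reads in those stretches are uncertain. The part of such reads in these levels was not tested. Eif4a3, whose protein belongs to the exon junction complex, measured 68.3 and 39.4 FPKM in PBS and 86.0 and 87.4 FPKM in 5-FU. The groups did not overlap, but the control libraries lay too far apart for a call (0.73 ± 0.27 log2, adjusted p = 0.0806).

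Eif4h measured 216.4 and 176.8 FPKM in PBS and 320.6 and 318.1 FPKM in 5-FU and rose by 0.70 ± 0.14 log2 (adjusted p = 0.0147, but 0.0504 without the filter and 0.0803 with quantile normalization). Eif4b had means of 218.9 ± 6.81 and 258.8 ± 4.45 FPKM and did not pass (adjusted p = 0.111). All 5 genes of this group had both treated libraries above both controls, as had 35.9% of all tested genes. Of the 5, 3 passed as higher, beside 22.1% of all tested genes, and the median log2 difference was 0.72.

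The cap-binding protein gene Eif4e itself measured 95.7 and 96.2 FPKM in PBS and 104.2 and 113.4 FPKM in 5-FU. That difference, 0.18 ± 0.11 log2, did not pass (adjusted p = 0.210). Eif4e2, which encodes the cap-binding homologue 4EHP that can repress translation, measured 19.0 and 14.9 FPKM in PBS and 31.5 and 31.9 FPKM in 5-FU. It rose 1.87-fold (0.87 ± 0.15 log2, adjusted p = 0.0103), without overlap. Eif4e3, another member of the family, went from 3.94 and 5.21 FPKM to 1.30 and 1.52 FPKM. It fell 3.24-fold (-1.20 ± 0.17 log2, adjusted p = 0.00661), with both treated libraries below both controls, and it had the lowest estimated reads of the 48 genes in a library, 68. The ratio of Eif4e to Eif4e3 was 24.3 and 18.5 in PBS and 80.3 and 74.5 in 5-FU. Eif4e1b, known from oocytes, was listed at 0 in 3 libraries and at 0.00892 FPKM in PBS replicate 2.

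The scaffold genes split in the same manner. Eif4g1, the main scaffold of eIF4F, measured 132.2 and 110.1 FPKM in PBS and 142.5 and 139.8 FPKM in 5-FU and did not pass (0.22 ± 0.13 log2, adjusted p = 0.205). Eif4g2, which encodes the related factor DAP5 that lacks the eIF4E-binding part, measured 127.4 and 89.9 FPKM in PBS and 170.2 and 182.5 FPKM in 5-FU. It rose by 0.71 ± 0.19 log2 (adjusted p = 0.0346), a call lost without the filter (0.102), with quantile normalization (0.168) and without mitochondrial and ribosomal protein genes in the scale (0.0602). Eif4g3, a second eIF4G scaffold, measured 15.0 and 11.6 FPKM in PBS and 5.80 and 5.86 FPKM in 5-FU. It fell 2.28-fold (-1.06 ± 0.16 log2, adjusted p = 0.00782), and its span of 215.5 kb is the longest of the 52 genes. The ratio of Eif4g1 to Eif4g3 was 8.81 and 9.47 in PBS and 24.6 and 23.9 in 5-FU, while Eif4g1 over Eif4g2 was 1.04 and 1.22 in PBS and 0.837 and 0.766 in 5-FU.

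**Figure D3:**
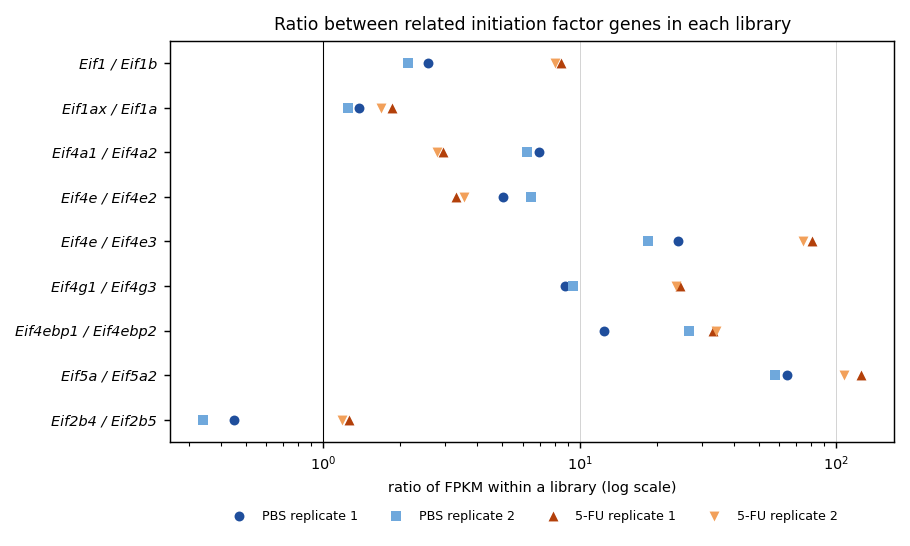
Ratio of the FPKM of related initiation factor genes within each library (log axis), 1 marker per library, with a line at a ratio of 1. The 5-FU markers lie outside the range of the PBS markers in each pair shown. Eif2b4 over Eif2b5, the eIF2B gene called higher over the gene called lower, crosses 1, from 0.448 and 0.340 in PBS to 1.26 and 1.19 in 5-FU.

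The 4E-BPs compete with eIF4G for eIF4E. Eif4ebp2 (chromosome 10, 61428491 to 61452661, minus strand) had the largest fall of the 48 genes on the log2(FPKM + 1) scale. As a ratio of means, Eif4e3 fell by as much, 3.24-fold. Eif4ebp2 went from 34.1 and 24.5 FPKM in PBS to 9.84 and 8.23 FPKM in 5-FU. Both treated libraries were far below both controls, a 3.24-fold fall of the mean with a log2 difference of -1.58 ± 0.20 (adjusted p = 0.00531). Eif4ebp1, the abundant family member, measured 424.8 and 654.3 FPKM in PBS and 324.8 and 280.6 FPKM in 5-FU. It was lower in both treated libraries, by 0.80 ± 0.24 log2 (adjusted p = 0.0448). The call was lost with median-ratio scaling and without the filter, and its adjusted p over the settings that leave out no library ran from 0.00877 to 0.134. Eif4ebp1 was the second most abundant of the 48 genes in PBS, at a mean of 539.6 ± 162.3 FPKM, and the seventh in 5-FU at 302.7 ± 31.2.

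Eif4ebp3 was too low to test, at 0.325 and 0.0969 FPKM in PBS and 0.129 and 0.0652 FPKM in 5-FU, and 67.3% of its exonic bases overlap another annotated gene on the same strand. The 3 genes together summed to 459.2 and 678.9 FPKM in PBS and 334.8 and 288.9 FPKM in 5-FU, so the summed 4E-BP level was lower in both treated libraries. Set against Eif4e, the level of Eif4ebp1 was 4.44 and 6.80 times as high in PBS and 3.12 and 2.47 times as high in 5-FU. Eif4enif1, which encodes the eIF4E transporter 4E-T, measured 23.5 and 17.4 FPKM in PBS and 24.3 and 22.9 FPKM in 5-FU, with overlapping groups (adjusted p = 0.347).

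The last group acts from start codon recognition to subunit joining and beyond. Eif5, which encodes the GTPase activator of eIF2, measured 109.3 and 50.2 FPKM in PBS and 168.4 and 174.1 FPKM in 5-FU. Both treated libraries were above both controls, but the PBS libraries differed by 1.11 log2 units, the widest control pair among the 48 genes, and the difference of 1.20 ± 0.38 log2 did not pass (adjusted p = 0.0513). Over the alternatives that leave out no library its adjusted p ran from 0.0101 to 0.151. Eif5a, which helps ribosomes through difficult peptide bonds and carries the amino acid hypusine, had the highest mean of the 48 genes in both groups, at 712.0 and 528.5 FPKM in PBS and 995.2 and 914.7 FPKM in 5-FU. It rose by 0.64 ± 0.18 log2 (adjusted p = 0.0413), a call lost in 4 of the 8 alternatives that leave out no library, with adjusted p up to 0.192. Its paralog Eif5a2 measured 11.1 and 9.13 FPKM in PBS and 7.93 and 8.55 FPKM in 5-FU and did not pass (-0.26 ± 0.15 log2, adjusted p = 0.195). Eif5a over Eif5a2 was 64.1 and 57.9 in PBS and 125.6 and 107.0 in 5-FU.

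Eif5b, which encodes the GTPase that joins the ribosomal subunits, measured 32.5 and 27.2 FPKM in PBS and 22.04 and 21.61 FPKM in 5-FU. It fell by 0.43 on the log2 scale (adjusted p = 0.0476), and 4 of the 8 alternatives that leave out no library lost the call. A share of 16.8% of its exonic bases overlaps Rev1 on the opposite strand, at 5.65 and 5.61 FPKM in PBS and 8.11 and 7.82 FPKM in 5-FU. Eif6, whose protein keeps the large subunit from joining too early and serves in its maturation, measured 107.6 and 78.3 FPKM in PBS and 155.5 and 145.6 FPKM in 5-FU. It rose by 0.71 ± 0.18 log2 (adjusted p = 0.0297), with no overlap. Its call was lost without the filter (0.0890), with quantile normalization (0.112) and without mitochondrial and ribosomal protein genes in the scale (0.0520). The 52nd gene, Eif2c5, is annotated as a long noncoding RNA on chromosome X, and its name carries the former prefix of the Argonaute genes. It was listed between 0 and 0.411 FPKM and was not tested.

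Several of these genes differed between the PBS libraries themselves. PBS replicate 2 was below PBS replicate 1 in 33 of the 48 genes, in 17 of the 22 genes that rose and in 4 of the 7 that fell. The median difference, replicate 2 minus replicate 1, was -0.15 log2 among the genes that rose, with a range from -0.73 to 0.34. A gap of at least 0.5 log2 between the PBS libraries was found in 9 of the 48 genes, while the widest gap between the 5-FU libraries was 0.23 log2. The median absolute gap over the 48 genes was 0.26 log2 in PBS and 0.06 in 5-FU, close to the 0.27 and 0.07 of all tested genes.

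Gene length moved with the differences. Of the 15 tested initiation factor genes that span under 10 kb, 10 rose and 1 fell, of the 23 from 10 to 30 kb, 10 rose and 3 fell, and of the 10 that span 30 kb or more, 2 rose and 3 fell. Among all tested genes the corresponding shares were 31.1% higher and 21.9% lower under 10 kb, 26.1% and 24.8% from 10 to 30 kb, and 11.5% and 44.1% at 30 kb or more. The median log2 differences in these 3 bins were 0.72, 0.24 and 0.14 for the initiation factor genes and 0.18, 0.03 and -0.40 for all tested genes. Across the 48 genes the Spearman correlation of the difference with the span was -0.35, and across all 11644 tested genes it was -0.29, where all genes share the same 4 libraries. With exonic length it was -0.03 across the 48 genes and -0.29 across all tested genes. Removing the trend with exonic length left 21 of the 48 genes higher and 6 lower, beside 2382 and 3289 of all 11644 tested genes. No alternative removed the trend with span, so its part in the calls was not tested.

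**Figure D4:**
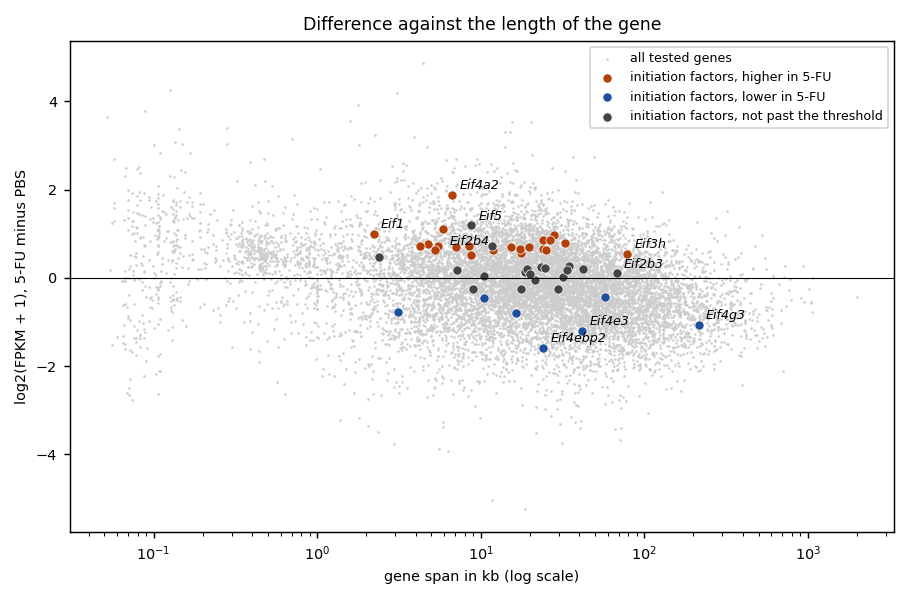
Difference between 5-FU and PBS on the log2(FPKM + 1) scale against gene span in kb (log axis), with all tested genes in grey and the 48 initiation factor genes coloured by call. Eif4g3 at 215.5 kb and -1.06 is the longest of them, and Eif1 at 2.21 kb and 1.00 the shortest.

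The promoters of the main helicase pair, of the eIF3 gene with the smallest adjusted p and of the gene with the largest log2 fall are shown. They were chosen because their transcripts moved by different amounts or in different directions. RefSeq's promoter table for GRCm38.p6 held 40 of the 52 genes. The 250 bases before each start were searched for the E-box CACGTG, which reads the same on both strands and is bound by MYC and related factors, and for TGATGNAA on both strands, the core of the C/EBP-ATF composite element used by ATF4. The lines below give GRCm38.p6 sequence with E-boxes in capitals, for Eif4a2 (chr16:23107218-23107443, plus strand), Eif4a1 (chr11:69672424-69672673, minus strand), Eif3f (chr7:108934165-108934414, plus strand) and Eif4ebp2 (chr10:61452670-61452919, minus strand). That of Eif4a2 is 226 bases long because it stops at the first exon annotated in GENCODE.
Eif4a2: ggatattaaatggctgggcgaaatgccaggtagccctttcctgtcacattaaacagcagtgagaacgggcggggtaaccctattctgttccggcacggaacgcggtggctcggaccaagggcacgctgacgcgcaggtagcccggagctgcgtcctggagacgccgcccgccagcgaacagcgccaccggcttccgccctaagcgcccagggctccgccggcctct
Eif4a1: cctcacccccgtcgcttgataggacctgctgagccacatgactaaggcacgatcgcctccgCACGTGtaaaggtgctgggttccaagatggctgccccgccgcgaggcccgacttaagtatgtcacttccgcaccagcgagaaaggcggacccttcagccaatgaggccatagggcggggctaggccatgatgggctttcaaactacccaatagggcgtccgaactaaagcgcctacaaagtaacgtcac
Eif3f: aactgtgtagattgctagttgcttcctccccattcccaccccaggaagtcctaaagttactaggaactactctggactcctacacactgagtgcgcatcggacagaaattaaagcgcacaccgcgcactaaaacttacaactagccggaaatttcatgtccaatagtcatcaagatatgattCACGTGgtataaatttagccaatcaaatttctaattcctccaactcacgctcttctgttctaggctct
Eif4ebp2: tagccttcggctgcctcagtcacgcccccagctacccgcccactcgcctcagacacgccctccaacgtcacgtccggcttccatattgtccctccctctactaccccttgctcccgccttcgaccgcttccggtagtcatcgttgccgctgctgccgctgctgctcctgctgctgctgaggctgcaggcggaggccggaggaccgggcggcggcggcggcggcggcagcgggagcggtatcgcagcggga

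The windows of Eif4a1 and Eif3f each hold 1 E-box, and those of Eif4a2 and Eif4ebp2 hold none. An E-box was found for 9 of the 40 initiation factor genes (22.5%), against 10.3% of the 8537 tested genes with a promoter in the table and 6.86% of all 27025 genes in it. By call, it was found for 4 of 17 genes that rose, 1 of 5 that fell and 4 of 16 that did not pass, which is 23.5%, 20.0% and 25.0%. The C/EBP-ATF core was found for 1 of the 40 genes, Eif2s3x, and for 2.28% of the tested genes. A match is a run of letters in the window and was not tested as a binding site.

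Genes that act with the initiation factors were taken from 4 lists: eIF2 kinases and phosphatase subunits, other initiation helpers, mTORC1 and MNK signalling, and elongation and release factors. Of 58 tested genes, 13 rose, 15 fell and 30 did not pass, or 22.4% higher and 25.9% lower, near the 22.1% and 31.2% of all tested genes. On the scale without mitochondrial and ribosomal protein genes the counts were 8 higher and 16 lower, without the filter 6 and 12, and without either 5-FU library 1 and 4.

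On the eIF2 side, 9 genes were tested, of which 1 rose and 2 fell, with 1 and 1 without the filter and 1 and 0 with quantile normalization or without either 5-FU library. In the main fit these were 11.1% higher and 22.2% lower, beside 22.1% and 31.2% of all tested genes. Ppp1r15a, which encodes GADD34, the stress-induced subunit that brings a phosphatase to eIF2, measured 15.5 and 23.1 FPKM in PBS and 106.7 and 105.1 FPKM in 5-FU. It rose 5.50-fold (2.42 ± 0.21 log2, adjusted p = 0.00302), far above both controls, and the call held in each alternative. Among the kinase genes, Eif2ak4, which encodes the amino acid sensor GCN2, fell from 8.29 and 8.27 FPKM to 5.45 and 5.54 FPKM (adjusted p = 0.0241). Its call was lost with quantile normalization, with the replicate block and after removal of the exonic length trend. Eif2ak2, which encodes the double-stranded RNA sensor PKR, measured 19.1 and 12.9 FPKM in PBS and 10.4 and 9.87 FPKM in 5-FU, and did not pass (adjusted p = 0.0702). Eif2ak1 and Eif2ak3, which encode the heme and endoplasmic reticulum stress kinases HRI and PERK, had log2 differences of 0.51 and 0.17 and did not pass (adjusted p = 0.116 and 0.355). Nck1, an adaptor gene, fell by 0.77 on the log2 scale (adjusted p = 0.0244, but 0.0756 without the filter and 0.157 with quantile normalization).

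Of 17 other initiation helpers, 1 rose and 3 fell, with 1 and 1 without the filter and 0 and 0 without either 5-FU library. In the main fit that was 5.88% higher and 17.65% lower, beside 22.1% and 31.2% of all tested genes. Paip1, which encodes a protein that ties the poly(A)-binding protein to eIF4A, rose from 28.1 and 24.7 FPKM to 45.2 and 49.6 FPKM (adjusted p = 0.00744). Paip2, whose protein displaces the poly(A)-binding protein, fell from 39.2 and 58.2 FPKM to 22.3 and 22.7 FPKM (adjusted p = 0.0152, but 0.0586 without the filter). Both pairs were free of overlap. Larp1, which encodes a binder of mRNAs with a terminal oligopyrimidine tract, and Gigyf2, the partner of 4EHP, fell by 0.80 and 0.88 on the log2 scale (adjusted p = 0.0136 and 0.0179). The call of Gigyf2 was lost without the filter, with quantile normalization and after removal of the exonic length trend, at up to 0.0753.

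Of 20 genes of mTORC1 and MNK signalling, 5 rose and 9 fell, or 25.0% and 45.0% beside 22.1% and 31.2% of all tested genes, with a median log2 difference of -0.20. Without the filter 1 rose and 9 fell, without mitochondrial and ribosomal protein genes in the scale 2 and 9, and without either 5-FU library 0 and 4. Quantile normalization gave 4 and 8 with a median of 0.02. The genes that fell included both activators and inhibitors of the pathway. Ddit4, which encodes the mTORC1 inhibitor REDD1, measured 180.2 and 340.9 FPKM in PBS and 51.5 and 48.0 FPKM in 5-FU (-2.29 ± 0.32 log2, adjusted p = 0.00626). Deptor, another inhibitor, went from 6.82 and 7.70 FPKM to 0.947 and 0.907 FPKM (adjusted p = 0.0027), and Rraga, which encodes a GTPase that brings mTORC1 to lysosomes, from 134.4 and 110.6 FPKM to 38.7 and 43.2 FPKM (adjusted p = 0.00338). All 3 were lower in both treated libraries, by 5.23-fold, 7.84-fold and 2.99-fold.

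The kinase gene Mtor itself measured 8.44 and 7.16 FPKM in PBS and 4.12 and 3.87 FPKM in 5-FU. It fell by 0.81 on the log2 scale (adjusted p = 0.011). Mknk2, which encodes a kinase that phosphorylates eIF4E, measured 37.7 and 39.5 FPKM in PBS and 21.1 and 20.1 FPKM in 5-FU and fell by 0.87 log2 (adjusted p = 0.00501). Among the genes that rose were Sesn2, an amino acid sensor that restrains mTORC1, Akt1s1, an inhibitory subunit, and Mlst8, a core subunit. Their log2 differences were 0.96, 0.88 and 0.76 (adjusted p = 0.0161, 0.0104 and 0.0436). Without the filter the calls of Sesn2 (0.0580) and Mlst8 (0.117) were lost, and that of Mlst8 also without mitochondrial and ribosomal protein genes in the scale (0.0686).

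Of 12 tested elongation and release factor genes, 6 rose and 1 fell, or 50% and 8.33% beside 22.1% and 31.2% of all tested genes, with a median log2 difference of 0.49. Without the filter 3 rose and 1 fell, with quantile normalization 4 and 2, and without either 5-FU library 0 and 0. Dohh, which encodes an enzyme that makes hypusine on eIF5A, rose from 13.6 and 11.2 FPKM to 24.6 and 22.3 FPKM (0.87 ± 0.14 log2, adjusted p = 0.0092). Eef1e1, a subunit gene of the multi-tRNA synthetase complex, and the release factor gene Gspt1 rose by 0.83 and 0.77 log2 (adjusted p = 0.00626 and 0.0229), and the call of Gspt1 was lost without the filter (0.0734) and with quantile normalization (0.0524). Eef2k, which encodes the kinase that stops elongation factor 2, fell from 6.63 and 7.93 FPKM to 3.22 and 3.16 FPKM (adjusted p = 0.00731).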

How the data were processed

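The authors deposited 1 table of FPKM values for 36445 genes in the 4 libraries. STAR 2.4.1a, Picard 2.9.0 and GRCm38 are listed, without roles, in the submitters' processing notes; the counter, annotation and strandedness were not given in the sources used here. GENCODE M21 on GRCm38 supplied coordinates and exonic lengths. Depth was estimated from the steps of low FPKM values, of which 63.2% to 65.1% lay within 0.02 of a whole read. Genes that reached 1 FPKM in 2 or more of the 4 libraries were fitted in R 4.3.3 with limma 3.58.1 (eBayes with trend) on log2(FPKM + 1), which understates the change of low genes; Benjamini-Hochberg adjustment ran over all 11644 tested genes, two-sided. Folds are ratios of mean FPKM. An exact permutation test of 2 against 2 libraries cannot go below 0.333, so none was run. The fit was checked on simulated data with the same spread in both groups, so that check does not cover the wider spread of the PBS pair. Full values are given for genes past the threshold with a log2 difference of at least 1, for paralog sets and for the smallest p in each role group. For other lists the text names up to 3 genes per direction and 7 genes whatever their values. Members, lists and rules were chosen with earlier results of these data known. Alternatives were a pseudocount of 0.1, no filter, a mean of at least 5 FPKM, 3 other scalings, blocking on the replicate number, subtraction of the exonic length trend, and leaving out each library. Shared sequence was counted as 50-base words of 1 GENCODE transcript per gene (the longest coding one) found in transcripts of other genes, and coding sequences were aligned with Biopython 1.88.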

Additional observations from a re-analysis of the deposited data

How the results depend on the processing

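The number of initiation factor genes higher in 5-FU moved by more than 1.5 times, from 22, to 11 with no filter on low values and 14 with quantile normalization, and the number lower moved from 7 to 4 with no filter. Leaving out 1 library gave between 2 and 32 higher and between 1 and 10 lower. For the genes that act with them, 13 higher became 6 with no filter and 8 without mitochondrial and ribosomal protein genes in the scale, and leaving out 1 library gave between 1 and 25 higher and between 4 and 23 lower. With a 5-FU library left out, its lone partner is assumed to vary like the PBS pair. Far fewer of all tested genes passed then, and more of them passed with a PBS library left out. The cause of these changes was not tested. With the replicate number as a block, 24 initiation factor genes were higher and 5 lower, and 11 and 14 of the others. Of all 11644 tested genes, 2484 were then higher and 3553 lower. Deviations of same-numbered libraries correlated at -0.01 over 11644 genes. A single correlation from 1 pair of libraries per group cannot show whether the numbers pair the samples. The 29 called initiation factor genes kept their direction in each alternative in which they were tested. That was 11 of 12 for Eif4e3, which does not reach a mean of 5 FPKM. Only the scalings and the removal of the exonic length trend could have reversed a called gene. Of the 29 called initiation factor genes, 13 kept their call in the 8 alternatives that leave out no library. Reversed signs were found only for genes that had not passed. With quantile normalization these were Eif3c (-0.17), Eif3k (-0.30), Eif3l (-0.11), Eif4b (-0.09), Eif4e (-0.08) and Eif4g1 (-0.08). Without mitochondrial and ribosomal protein genes they were Eif2a (-0.08), Eif3c (-0.00) and Eif3k (-0.06). Eif2s2 turned to 0.06 with median-ratio scaling, 0.12 with the exonic length trend removed and 0.08 without PBS replicate 2, and Eif3k to -0.02 with the length trend removed. Leaving out 1 library gave a range that crossed 0 for Eif2a (-0.04 to 0.07), Eif3c (-0.04 to 0.24), Eif2b3 (-0.02 to 0.23) and Eif3k (-0.02 to 0.10). Depth limits Eif4e3 and Eif3j2, with as few as 68 and 95 estimated reads in a library.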
